A study of Mus musculus with 5 samples.

Results

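Natural killer (NK) cells of the mouse lung were selected on their own transcripts from 5 droplet scRNA-seq libraries that cover a sham lung and 4 times after bleomycin. A barcode became a member when Ncr1 and Klrb1c, which encode the NK receptors NKp46 and NK1.1, gave at least 2 UMIs together (a UMI, or unique molecular identifier, marks a captured transcript). Members also had to lack any UMI of Cd3d, Cd3e, Cd3g, Cd79a, Siglech and Car4 and to hold no more than 1 UMI of Cd68 and Mrc1. Before this step, 44772 barcodes of all 5 libraries were kept for a gene number of 300 to 8000, a UMI number of 800 to 60000 and a mitochondrial part under 15%. The rule found 510 NK cells among them, 87 in sham and 272, 19, 72 and 60 at days 3, 7, 14 and 28.

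The mice of all groups were adult Ms4a3-CreER;R26-tdT animals of mixed C57BL6/129 background, at least 7 weeks old, in which tamoxifen given by gavage marks Ms4a3+ cells and their progeny with the red reporter tdT. The Cre is driven by a gene of granulocyte and monocyte progenitors and is carried by the sham mice too. The sham lungs had received PBS, and the other groups received bleomycin through the trachea and were collected after 3, 7, 14 or 28 days. Lungs were flushed of blood, digested with collagenase and freed of red blood cells, and the labels describe the suspension as immune cells. Each group is 1 library, and the sources used here do not give the number of mice behind it. No test between time points was therefore possible: levels are in CPM, with each count scaled to all UMIs of the NK cells in its library, with an exact Poisson 95% interval, a share with an exact Clopper-Pearson 95% interval, and both cover counting error only.

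NK cells are innate lymphocytes that kill stressed or infected cells without a rearranged antigen receptor. They weigh signals from activating receptors such as NKG2D (Klrk1) against inhibitory ones such as several Ly49 proteins (Klra genes), release granzymes and perforin onto their targets, and secrete interferon-γ and chemokines. In the lung most NK cells are mature and circulate with the blood, and interferons and interleukins 12, 15 and 18 raise their activity.

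The libraries held 131210167 UMIs in sham and 89769386, 151234640, 144984156 and 167506186 at days 3, 7, 14 and 28. The day 7 library stood apart, since its lowest barcode had 4624 UMIs, against 500 to 502 in the other 4 libraries. The median NK cell held 4064 UMIs in sham and 5662.5, 6119, 3488.5 and 3388 at days 3, 7, 14 and 28, so that 57 of 87 sham members, 68 of 272 at day 3, 57 of 72 at day 14 and 45 of 60 at day 28 lay under the lowest count of day 7. Any pair of libraries shared 22 to 41 barcode sequences, and none of them was a member in both libraries of the pair. A Y-linked transcript was found in 358 of 510 members, in every library, and Xist in 0.

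NK cells made up 0.942% of the kept barcodes in sham (0.755 to 1.16%) and 3.40% in the day 3 library (3.01 to 3.82%). Day 7 had 0.200% (0.121 to 0.312%), day 14 had 0.928% (0.727 to 1.17%) and day 28 had 0.584% (0.446 to 0.751%). The interval of day 3 lay above all others and that of day 7 below all others, while sham and day 14 overlapped. Among barcodes at or above the lowest UMI count of day 7, the share was 0.435% in sham and 3.27%, 0.200%, 0.268% and 0.201% at days 3, 7, 14 and 28, so that day 3 remained highest and day 7, day 14 and day 28 lay close together. As a share of the NK, T and ILC2 cells (type 2 innate lymphoid cells) taken by gates of the same kind, NK cells came to 17.1% in sham and 20.7%, 1.87%, 5.15% and 4.09% at days 3, 7, 14 and 28. On that scale the intervals of sham and day 3 overlapped, and the 3 later libraries lay lower than both. The share of a library depends on all other cells that were recovered with it, and 1 library per time point cannot tell a time point from its library.

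**Figure D1:**
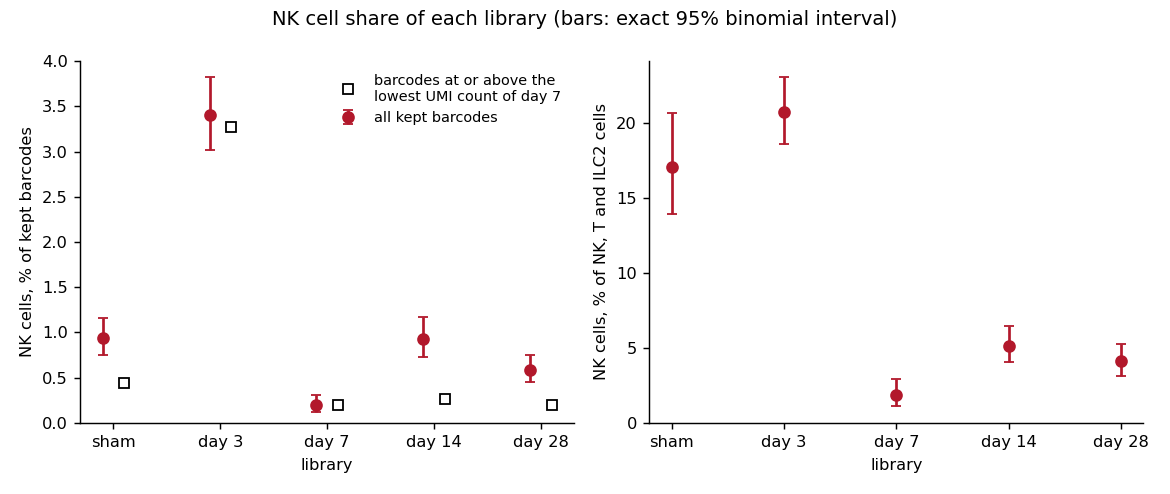
NK cells of each library as percent of the kept barcodes (left) and of the NK, T and ILC2 cells (right). Filled points carry the exact 95% binomial interval and open squares use only barcodes at or above the lowest UMI count of day 7. Day 3 stands highest on the left at 3.40%, and the 3 later libraries stand below sham and day 3 on the right.

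The exclusions of the gate weighed on the libraries unequally. Before them, 184 barcodes in sham and 460, 69, 114 and 89 at days 3, 7, 14 and 28 had at least 2 UMIs of Ncr1 and Klrb1c. A UMI of Car4, which is known from a class of lung capillary cells and which the macrophages of these libraries held at 1169 CPM in sham, was present in 73 of these in sham and 46, 14, 9 and 3 at days 3, 7, 14 and 28. A CD3 transcript was present in 31, 123, 24, 23 and 21 of them in the same order, and more than 1 UMI of Cd68 and Mrc1 in 38, 38, 29, 19 and 11.

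The label was checked on genes outside the rule. A Gzma UMI was found in 95.4% of members in sham and 92.3%, 68.4%, 97.2% and 83.3% at days 3, 7, 14 and 28, against 0.253 to 8.72% of B cells, which do not make this granzyme. With every cell thinned to 2000 UMIs, which left out 3, 2, 0, 3 and 14 shallower members, the shares were 95.2, 91.9, 68.4, 97.1 and 80.4% of members and at most 3.55% of B cells. Nkg7, a granule protein of killer cells, was present in 97.7, 99.3, 89.5, 100 and 95% of members, and Eomes, a transcription factor of NK and T cells, in 69.0, 68.4, 47.4, 70.8 and 53.3%. The shares of Gzma, Nkg7 and Eomes were lowest among the 19 cells of day 7, which are described cell by cell further on.

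At the threshold itself, over all libraries, the 70 barcodes just outside with 1 UMI of Ncr1 and Klrb1c held a Gzma UMI in 67.1%, an Eomes UMI in 37.1% and a Prf1 UMI in 20% of cells. The 50 members just inside with exactly 2 UMIs held Gzma in 84%, Eomes in 58% and Prf1 in 42%, and the 460 members with 3 or more held them in 92.4, 67.2 and 63.0%. Both gate genes were seen in 417 members, Ncr1 alone in 47 and Klrb1c alone in 46. Gzma was present in 66.0% of the members with Ncr1 alone and in 95.7% of those with Klrb1c alone, and Gzmc in 12.8% and 0.

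Transcripts of T cell receptor constant genes are known from NK cells, which transcribe these loci without rearranging them. Trbc1 was at 752 CPM in sham and 568, 359, 349 and 331 CPM at days 3, 7, 14 and 28, and 54.2 to 87.9% of members of a library held a UMI of it against 0.503 to 5.75% of B cells. Trac, the α chain of T cells, was at 2.75 CPM in sham and 26.7, 6.19, 14.7 and 25.5 CPM at days 3, 7, 14 and 28. A UMI of it was found in 1.15, 15.4, 5.26, 5.56 and 6.67% of members in the same order and in at most 4.08% of B cells. At day 3 and day 28 it was 2-fold or more higher than in sham with an interval that left out 1. Only at day 28 was it above the other barcodes. The gate excluded the CD3 genes only, so a T cell whose CD3 transcripts were missed could be a member, and its part in these values was not tested.

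The cytotoxic machinery was led by Gzma, a tryptase that is delivered into target cells. It was at 11733 CPM in sham and 12574, 4861, 10136 and 7714 CPM at days 3, 7, 14 and 28. The day 7 level was lower than sham by 1.27 on the log2 scale (log2 ratio -1.27 (-1.38 to -1.16)), and the other 3 ratios lay between -0.60 and 0.10. Of the 19 cells of day 7, 6 held transcripts of dendritic cells or neutrophils, described further on. In these 6 Gzma was at 2776 CPM and in the other 13 at 6381 CPM, and the log2 ratio of these 13 to all sham members, computed after seeing the data, was -0.88 (-1.005 to -0.755), which is under 2-fold. Counts of genes given further on as without members of mixed lineage leave such cells out of both libraries compared, likewise after seeing the data. The lists that define them are named with the day 7 cells, and macrophage genes are not among these. No share over all genes is given beside the list counts made with this exclusion. Per cell, the median member held 123 Gzma UMIs per 10000 in sham and 115, 27.6, 109 and 108 at days 3, 7, 14 and 28. The central ranges of sham (86.3 to 167 from the lower to the upper quartile) and day 3 (52.7 to 192) overlapped, and the highest cell of all, with 407, was from day 3.

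**Figure D2:**
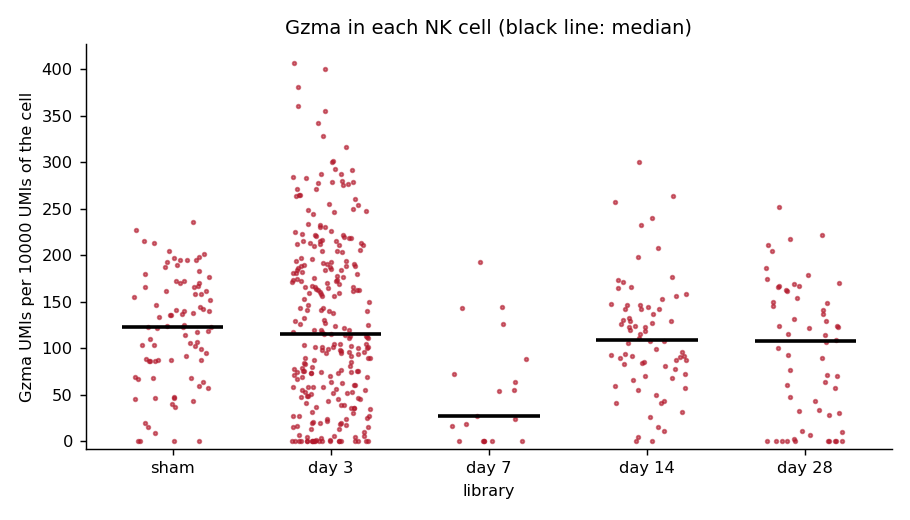
Gzma UMIs per 10000 UMIs in each of the 510 NK cells by library, with the median as a black line. Cells without any Gzma UMI lie at 0 in every library, and the day 7 median of 27.6 is the lowest of the 5.

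Gzmb, the granzyme that cleaves caspases, was at 865 CPM in sham and 2228, 625, 837 and 1052 CPM at days 3, 7, 14 and 28. Its day 3 level was 2.58 times the sham level (log2 ratio 1.37 (1.20 to 1.54)), and it was the only member of the list of 20 NK markers outside the rule to reach 2-fold with an interval that left out 1 at day 3. In CD8 T cells Gzmb was also higher at day 3, at 69.1 CPM in sham and 380 CPM at day 3. Prf1, which encodes the pore-forming perforin, was at 297 CPM in sham and 196, 155, 474 and 255 CPM at days 3, 7, 14 and 28. It was lower than sham at day 3 (log2 ratio -0.60 (-0.91 to -0.28)) and higher at day 14 (0.67 (0.29 to 1.05)). The highest level among the libraries was thus at day 3 for Gzmb and at day 14 for Prf1. Nkg7 was at 4184 CPM in sham and 3798, 1598, 3344 and 2380.5 CPM at days 3, 7, 14 and 28, lower than sham at all 4 times.

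Of the other granule genes, Srgn, the proteoglycan core that packs granzymes, was at 622.5 CPM in sham and 1251, 1133, 573 and 649 CPM at days 3, 7, 14 and 28. The other barcodes of the libraries held Srgn at 293 to 1484 CPM, and the part of free RNA in it was not tested. The inhibitors that protect a killer cell from its own granzyme B were present throughout: Serpinb9 was at 796 CPM in sham and 877, 576, 1211 and 683 CPM at days 3, 7, 14 and 28. Gzmm, a metase found in NK cells, was at 49.6 CPM in sham and 8.01, 6.19, 7.34 and 25.5 CPM at days 3, 7, 14 and 28, with 13 cells carrying it at day 3 against 9 in sham. Gzmc, a granzyme of activated cells, was at 2.75 CPM in sham and 144, 316, 7.34 and 0 CPM at days 3, 7, 14 and 28, and at day 3 its 269 UMIs came from 15 cells, of which 1 gave 43.1%. Over the list of 22 cytotoxic granule genes, 4 were higher at day 3 by the same rule of 2-fold and interval (Gzmb, Gzmc, Srgn and Stx11) and 1 was lower (Gzmm), against 2.56% of all 12946 genes with a UMI higher and 3.06% lower. At day 7 the count was 2 higher and 5 lower, against 4.71% and 3.04% of all 11420 genes. Without members of mixed lineage it was 2 and 2, with Gzma, Gzmm and Ctsc no longer lower, Stx11 no longer higher and Tnfsf10 added to the higher ones.

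The promoters of the granule genes are shown because these genes carry out the killing that NK cells are known for. RefSeq windows on GRCm38.p6, 300 bases from 250 before to 50 after the start, were held for 27025 genes and for 20 of the 22 granule genes. A gene counted when any of its windows held a match. TGTGGT, a motif of RUNX factors, was found on either strand in 14 of those 20 (70%) and in 18.9% of all genes with a window. The T-box motif AGGTGTNA was in 2 of 20 (10%) and 3.52% of all. CACCC, a motif of KLF factors that is short and common, was in 15 of 20 (75%) and 59.8% of all. A stretch around a RUNX match from 4 genes follows, in the reading direction of the gene with the match in capitals (ACCACA is TGTGGT read from the other strand), and a match is a run of letters and not a shown binding site.
Gzma, chr13:113101016-113101041, minus strand, 50 bases before the start: gaagaacaaaACCACAtcctttgcac
Nkg7, chr7:43437045-43437070, plus strand, 83 bases before the start: gcccacccctACCACAtaggaggaga
Gzmb, chr14:56262412-56262437, minus strand, 93 bases before the start: cctatgccctTGTGGTcttgccctgg
Serpinb9, chr13:33004541-33004566, plus strand, 10 bases after the start: ctcttcctgcTGTGGTcgccagagcc

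Among the secreted proteins, Ccl5, a chemokine that draws T cells and monocytes, was at 16184 CPM in sham and 13200.3, 5784, 11288 and 12895 CPM at days 3, 7, 14 and 28. Its level was below sham in every bleomycin library, by 1.48 on the log2 scale at day 7 (log2 ratio -1.48 (-1.59 to -1.38)). Xcl1, the chemokine that attracts cross-presenting dendritic cells, was at 295 CPM in sham and 744, 1059, 334 and 255 CPM at days 3, 7, 14 and 28. It was 2.53 times the sham level at day 3 (log2 ratio 1.34 (1.05 to 1.63)) and 3.59 times at day 7 (1.85 (1.49 to 2.21)), and its UMIs were found in 169 of 272 members at day 3 and 35 of 87 in sham. In CD8 T cells Xcl1 was also higher at these times, at 8.64 CPM in sham and 57.7 and 156 CPM at days 3 and 7. Ifng, which encodes interferon-γ, was at 99.2 CPM in sham and 77.9, 49.5, 139.5 and 50.9 CPM at days 3, 7, 14 and 28, and the intervals of all 4 days overlapped that of sham. Ccl4 was at 824 CPM in sham and 643, 594, 877 and 569 CPM at days 3, 7, 14 and 28, and no day of this macrophage-attracting chemokine reached 2-fold.

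**Figure D3:**
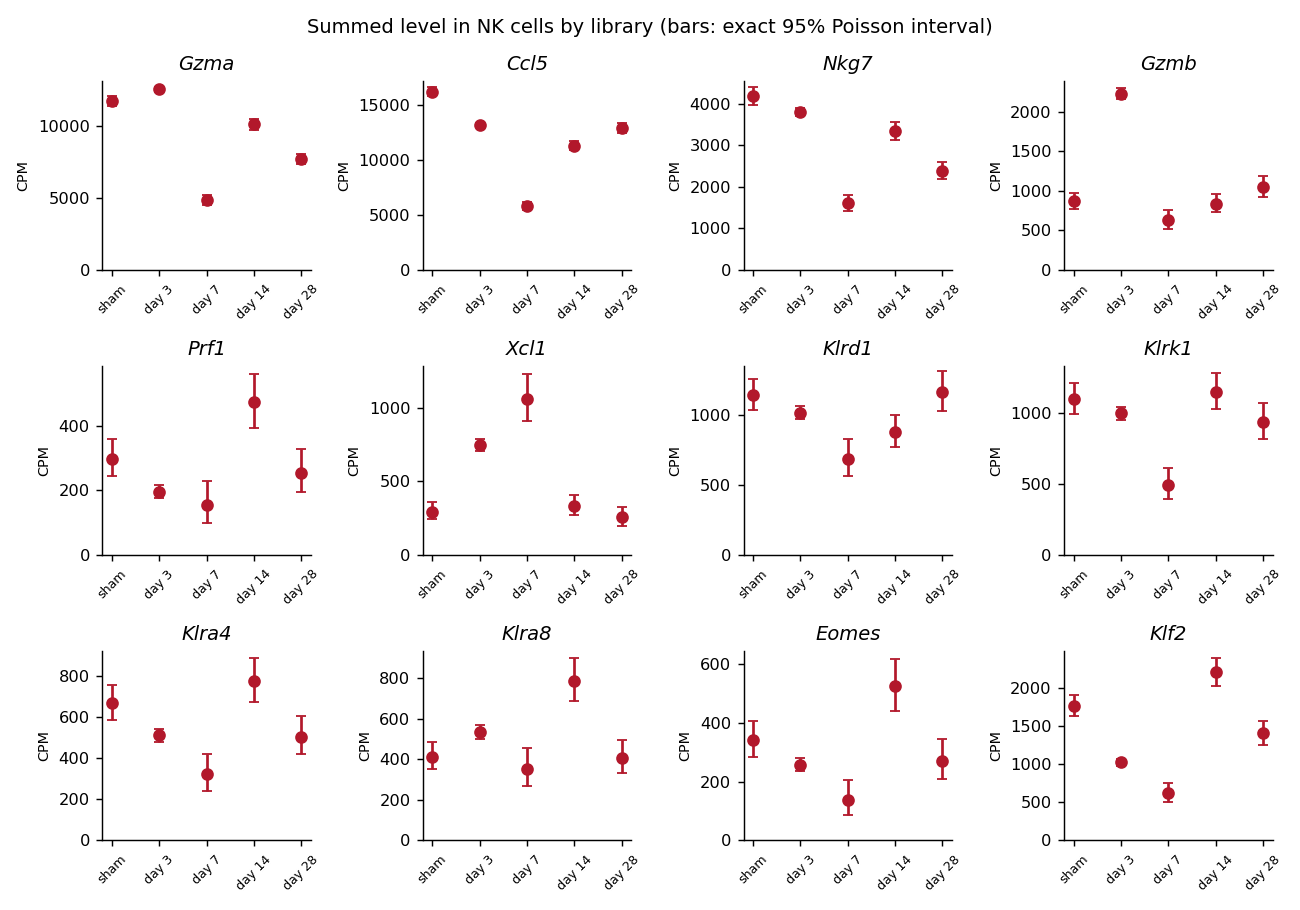
Summed level of 12 genes in the NK cells of each library in CPM, each panel starting at 0, with exact 95% Poisson intervals. Gzmb and Xcl1 stand above sham at day 3, and Gzma, Ccl5, Nkg7, Klrd1, Klrk1, Klra4, Eomes and Klf2 stand lowest at day 7, where 19 cells were found.

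Receptors decide what an NK cell responds to. Of 31 listed receptor genes in the files, day 3 had 1 higher and 0 lower, day 7 had 1 and 9, day 14 had 0 and 2, and day 28 had 1 and 1. The backgrounds not given above were 4.42% higher and 2.01% lower of 11520 genes at day 14, and 4.5% higher and 1.98% lower of 11740 genes at day 28. Klrk1, which encodes the activating receptor NKG2D, was at 1102 CPM in sham and 998, 495, 1153 and 938 CPM at days 3, 7, 14 and 28. Klrd1, the CD94 chain that pairs with NKG2 proteins, was at 1146 CPM in sham and 1015, 687, 881 and 1167 CPM at days 3, 7, 14 and 28. Both genes were lowest at day 7, and the day 7 intervals (393 to 617 for Klrk1 and 565.5 to 828 for Klrd1) lay below those of sham.

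Of the Ly49 family, whose genes lie side by side on chromosome 6, Klra8 (the activating Ly49H) was at 413 CPM in sham and 533, 353, 789 and 407 CPM at days 3, 7, 14 and 28. Klra4 (the activating Ly49D) was at 669 CPM in sham and 511, 322, 778 and 505 CPM at days 3, 7, 14 and 28. Klra8 was found in 45 to 59.7% of the members of sham, day 3, day 14 and day 28, and a cell with 0 UMIs is not shown to lack the gene at this depth. Klra3 was at 171 CPM in sham and 185, 6.19, 261 and 182 CPM at days 3, 7, 14 and 28, and its day 7 value rests on 1 UMI. Klra1 was at 49.6 CPM in sham and 61.4, 55.7, 47.7 and 208 CPM at days 3, 7, 14 and 28, and at day 28 its 49 UMIs came from 6 cells, of which 1 gave 55.1%. These genes are near copies of each other and their number differs between mouse strains, so reads can be split or lost among them, and in mice of mixed background a level of a Klra gene cannot be told apart from the genotype of the mouse. At day 7 the 9 lower genes were Klra3, Klra4, Klra7, Klra9, Klrb1a, Klre1, Klrg1, Klri2 and Klrk1. Without members of mixed lineage the count was 6, of which 5 were among these 9: Klra4, Klra9, Klrb1a and Klrk1 were no longer lower by 2-fold, and Klrd1 was. The 13 other cells of day 7 held Klrk1 at 632 CPM and Klra4 at 364 CPM, log2 ratios of -0.80 and -0.88 to all sham members.

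Of the inhibitory receptors found on exhausted T cells, Lag3 was at 0 CPM in sham and 22.4, 18.6, 0 and 4.24 CPM at days 3, 7, 14 and 28, was listed at 0 UMIs in sham and day 14, and at day 3 its 27 cells gave a level at least 2.71 times the floor of 3 counts in sham, near the 21.2 CPM of the other barcodes. Havcr2, which encodes TIM-3, was at 2.75 CPM in sham and 1.07, 6.19, 3.67 and 4.24 CPM at days 3, 7, 14 and 28, while the other barcodes held it at 46.7 to 64.5 CPM. Among the adaptors that pass on receptor signals, Fcer1g was at 2928 CPM in sham and 2953, 1653, 2709 and 2049.5 CPM at days 3, 7, 14 and 28, and Cd247, the ζ chain, was at 157 CPM in sham and 119, 31.0, 58.7 and 46.7 CPM at days 3, 7, 14 and 28. Cd247 was lower than sham at day 7, 14 and 28 by 2-fold or more with an interval that left out 1.

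Transcription factors set the state of an NK cell. Eomes, needed for mature circulating NK cells, was at 342 CPM in sham and 257, 136, 525 and 272 CPM at days 3, 7, 14 and 28, highest at day 14 (log2 ratio 0.62 (0.26 to 0.98)). Tbx21, which encodes T-bet, was at 138 CPM in sham and 129, 43.3, 84.4 and 76.4 CPM at days 3, 7, 14 and 28. Irf8 was at 1559 CPM in sham and 1738, 923, 1997 and 726 CPM at days 3, 7, 14 and 28, lower at day 28 than in sham (log2 ratio -1.10 (-1.36 to -0.85)). Klf2, which keeps lymphocytes quiet and in circulation, was at 1763 CPM in sham and 1025, 613, 2206 and 1405 CPM at days 3, 7, 14 and 28. Its level at day 3 and day 7 lay below sham (log2 ratios -0.78 (-0.91 to -0.65) and -1.52 (-1.84 to -1.22)), and that of day 14 above it. In CD8 T cells Klf2 was likewise lower, at 1682 CPM in sham and 883 and 684 CPM at days 3 and 7. B cells held it at 2559, 1205 and 1162 CPM in the same order. At day 14 these classes differed from NK cells and lay below their sham levels, at 1085 and 1987 CPM. Of 26 listed factors, day 3 had 1 higher (Ikzf2) and 1 lower (Prdm1), day 7 had 2 and 7, day 14 had 2 and 0, and day 28 had 0 and 2 (Nfil3 and Irf8 lower). Without members of mixed lineage, day 7 had 2 and 3, with Tbx21, Tcf7, Lef1 and Ets1 no longer lower, and day 28 had 0 and 1, with Irf8 no longer lower by 2-fold.

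The genes that move NK cells in and out of tissue included receptors that were lower in every bleomycin library. S1pr4, a receptor for sphingosine 1-phosphate, was at 174 CPM in sham and 62.5, 31.0, 55.1 and 67.9 CPM at days 3, 7, 14 and 28, and all 4 bleomycin libraries lay below the sham interval of 133 to 222. In CD8 T cells it was also below sham at all 4 times, at 123 CPM in sham and 93.1, 39.6, 81.5 and 48.3 CPM. The same held in B cells, at 54.7 CPM in sham and 32.5, 10.0, 24.6 and 18.6 CPM. S1pr5, which brings mature NK cells out of lymph nodes and bone marrow, was at 82.6 CPM in sham and 37.9, 0, 88.1 and 63.6 CPM at days 3, 7, 14 and 28. It was lower at day 3 (log2 ratio -1.12 (-1.76 to -0.46)) and had no UMI among the 19 cells of day 7. Ccr2, the receptor for the chemokine CCL2, was at 529 CPM in sham and 299.5, 161, 286 and 250.4 CPM at days 3, 7, 14 and 28, so again every bleomycin library lay below sham. Of 26 listed trafficking genes, day 3 had 2 higher and 2 lower, day 7 had 3 and 9, day 14 had 0 and 3, and day 28 had 0 and 2. Without members of mixed lineage, day 7 had 2 and 9, of which 1 and 7 were among the former, and day 28 had 0 and 1, with Ccr2 no longer lower by 2-fold. Both higher trafficking genes of day 3, Ccr7 and Gpr183, were at or below their level in the other barcodes. At day 7, 2 of the 3 higher genes were above it.

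Maturation runs from CD27+ to CD11b+ (Itgam) cells. Cd27 was at 218 CPM in sham and 159, 68.1, 80.8 and 72.1 CPM at days 3, 7, 14 and 28, and Itgam was at 85.4 CPM in sham and 54.5, 55.7, 162 and 72.1 CPM at days 3, 7, 14 and 28. The intervals of the 3 later libraries lay below that of sham for Cd27, and day 14 was highest for Itgam with an interval (117 to 217) that overlapped that of sham (58.0 to 121). Klrg1, a receptor of the last stage, was at 107 CPM in sham and 121, 18.6, 40.4 and 59.4 CPM at days 3, 7, 14 and 28. Of 15 genes listed for immature NK cells, day 3 had 3 higher and 0 lower, day 7 had 4 and 7, day 14 had 1 and 5, and day 28 had 2 and 1. Of 19 listed for mature cells, day 3 had 2 higher and 2 lower, day 7 had 0 and 8, day 14 had 0 and 3, and day 28 had 1 and 1. Without members of mixed lineage, day 7 had 2 higher and 3 lower of the immature list and 0 and 6 of the mature list. Of the higher genes of day 3, Gpr183 of the immature list and Ly6c2 of the mature list were at or below their level in the other barcodes. The mature list shares 6 genes with the trafficking list (Itgam, S1pr5, Cx3cr1, S1pr1, Spn and Itgb7), so S1pr5 (lower at day 3 and 7) and Itgb7 (lower at day 7 and 14) count in both.

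The most widespread difference at day 3 was in the interferon-stimulated genes. Of 51 such genes in the files (of 56 listed), 43 were higher than in sham by 2-fold or more with an interval that left out 1, 0 were lower and 8 were neither, and the median log2 ratio was 1.87 against -0.34 over all 12946 genes with a UMI. Of these 43 genes, 42 were in NK cells of day 3 at or below their level in the other barcodes of that library, and Samd9l was above it. The part of free RNA from other cells in these 42 was not tested. At day 7 the count was 4 higher and 2 lower, at day 14 it was 14 and 1, and at day 28 it was 7 and 1. The higher genes above the other barcodes of their library were 1 of 4, 12 of 14 and 7 of 7 at these times. The counts without members of mixed lineage were 41 higher at day 3 and 1 higher and 1 lower at day 7. Summed over the list, NK cells held 1545 CPM in sham and 7360, 1765, 2922 and 2079 at days 3, 7, 14 and 28, so day 3 was 4.76 times sham (4.38 to 5.19). At day 14, 1 cell gave 20.4% of the list's UMIs.

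Interferon-stimulated genes are switched on when interferon binds its receptor, and their proteins block viruses and shape the immune response. Isg15, a ubiquitin-like protein, was at 19.3 CPM in sham and 263, 31.0, 73.4 and 17.0 CPM at days 3, 7, 14 and 28. Irf7, a transcription factor that feeds the response, was at 68.9 CPM in sham and 434, 18.6, 91.8 and 42.4 CPM at days 3, 7, 14 and 28. Both had their highest value at day 3, with intervals that did not overlap those of sham.

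Bst2, the tetherin that holds budding viruses, was at 33.1 CPM in sham and 357, 80.5, 62.4 and 25.5 CPM at days 3, 7, 14 and 28. Ifit1 and Ifit3, which bind foreign RNA, were listed at 0 in sham, and their day 3 levels of 101 and 123 CPM were at least 12.2 and at least 14.9 times the floor of 3 counts. Ifi27l2a was at 2.75 CPM in sham and 451, 316, 58.7 and 8.49 CPM at days 3, 7, 14 and 28, from 1 UMI in sham to 844 UMIs in 130 cells at day 3. The other barcodes of day 3 held it at 3010 CPM, and Isg15 at 1194, Irf7 at 1114 and Bst2 at 1406 CPM, above their NK levels, and the part of free RNA in these genes was not tested.

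The difference was spread over the cells. Per cell, the summed list was between 0 and 5614 CPM in sham with a median of 1437, and between 1234 and 40174 CPM at day 3 with a median of 5951. At day 3, 151 of 272 cells (55.5%) lay above the highest sham cell, against 0 of 19 at day 7, 3 of 72 at day 14 and 2 of 60 at day 28. The 10th percentile of the day 3 cells was 2994 CPM and the 90th percentile of the sham cells was 2514 CPM.

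Other lymphocytes of the same libraries differed in the same direction at day 3. The summed list in CD8 T cells was 3109 CPM in sham and 14584 at day 3, 4.69 times higher (4.51 to 4.88), and in B cells 1628 and 9271 CPM, 5.69 times higher (5.43 to 5.97). The intervals of NK cells and CD8 T cells overlapped, and the level was higher in CD8 T cells at both times. The later libraries were less alike. In NK, CD8 T and B cells the list was 1.14, 1.41 and 1.61 times sham at day 7. It was 1.89, 1.24 and 0.966 times sham at day 14 and 1.35, 0.649 and 1.08 times at day 28.

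**Figure D4:**
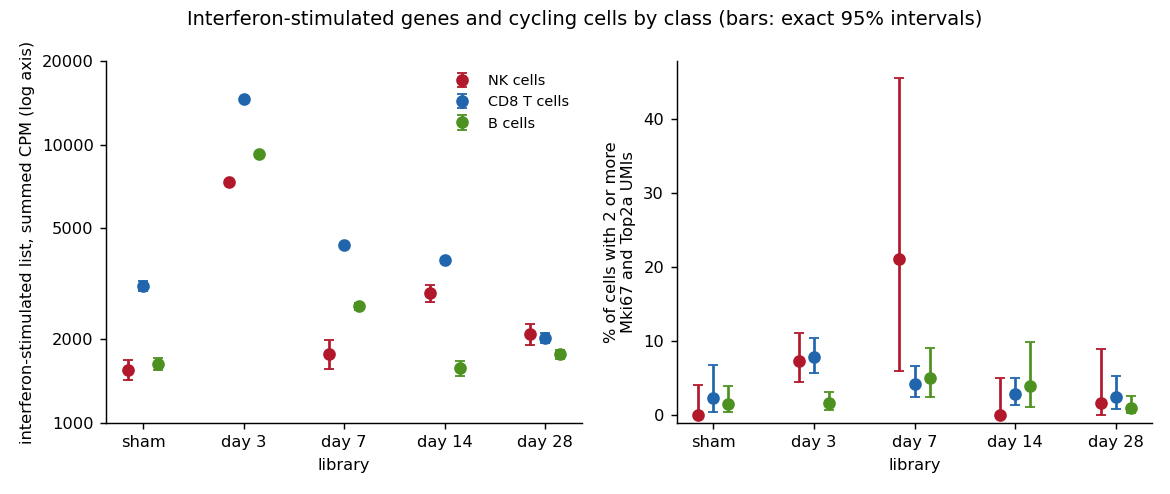
Left, summed CPM of the interferon-stimulated list on a log axis in NK cells, CD8 T cells and B cells of each library, with exact Poisson intervals. Right, percent of cells with at least 2 UMIs of Mki67 and Top2a, with exact binomial intervals. NK cells reach 7360 CPM at day 3 together with both other classes, and 20 of 272 NK cells cycle at day 3.

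The promoters of these genes are shown because the genes were higher together at day 3. The core of the interferon-stimulated response element is GAAANNGAAA, sought on either strand. It was found in 27 of the 42 list members with a window in the RefSeq table (64.3%) and in 3.99% of all 27025 genes with one. It was in 4 of 20 granule genes (20%), in 0 of 26 NK receptors and in 0 of 27 replication genes with a window. Among the members with a large day 3 ratio, Ifi44, Xaf1, Irf7, Ly6c2, Samd9l and Ifi47 had a window without these letters. Stretches of 30 bases follow for 6 genes on GRCm38.p6, in the reading direction of the gene, with the match in capitals, and in Ifit3, Ifit1 and Trim30a the element reads from the other strand.
Ifit3, chr19:34583363-34583392, plus strand, 156 bases before the start: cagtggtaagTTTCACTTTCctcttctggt
Isg15, chr4:156200877-156200906, minus strand, 78 bases before the start: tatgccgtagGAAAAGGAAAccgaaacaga
Ifit1, chr19:34640775-34640804, plus strand, 104 bases before the start: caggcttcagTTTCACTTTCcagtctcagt
Bst2, chr8:71537583-71537612, minus strand, 130 bases before the start: ggcattccagGAAAATGAAActgaaaggct
Phf11b, chr14:59341361-59341390, minus strand, 50 bases before the start: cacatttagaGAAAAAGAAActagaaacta
Trim30a, chr7:104465210-104465239, minus strand, 36 bases before the start: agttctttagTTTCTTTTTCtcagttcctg

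Cycling cells were found at day 3 and day 7, and 1 at day 28. At least 2 UMIs of Mki67 and Top2a, which mark dividing cells, were found in 0 of 87 members in sham (0 to 4.15%, and 3 counts allow a share of up to 3.45%), 20 of 272 at day 3 (7.35%, 4.55 to 11.1%), 4 of 19 at day 7 (21.1%, 6.05 to 45.6%), 0 of 72 at day 14 and 1 of 60 at day 28. Of the 4 at day 7, 1 was a member of mixed lineage and another held no Gzma UMI. The cycling members of day 3 held a median of 17457.5 UMIs against 5451 in the rest. With all cells thinned to 2000 UMIs, 7 of 270 (2.59%, 1.05 to 5.27%) were left at day 3 and 0 of 84 in sham (0 to 4.30%), so the intervals overlapped at equal depth, and day 7 had 2 of 19 (10.5%, 1.30 to 33.1%). CD8 T cells of day 3 cycled in 43 of 545 (7.89%, 5.77 to 10.5%), an interval that overlapped that of the NK cells.

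Of 34 listed replication and mitosis genes, 23 were higher at day 3 and 21 at day 7 with 0 lower, while at day 14 the count was 0 higher and 1 lower and at day 28 it was 1 and 3. Few cells carried the higher counts, since 15 of 272 members at day 3 and 4 of 19 at day 7 held 1% or more of their UMIs from this list, and 1 cell gave 32.03% of it at day 7. The median cell held 4396 CPM of the list in sham and less at day 3 (3373) and day 7 (3168). Within day 3, the 20 cycling members held Gzma at 14171 CPM (13777 to 14573) and the other 252 at 12213 CPM (12038 to 12389). Gzmb was at 1903 CPM in the cycling cells and 2302 CPM in the others. Ccl5 was at 8608 and 14242 CPM, Klf2 at 583 and 1125 CPM and Ly6a at 838 and 1834 CPM. Gzmc was at 341 CPM in the cycling cells, from 15% of them, and at 98.9 CPM in the others, and Cxcr6 at 2.89 and 33.4 CPM. The split uses Mki67 and Top2a of the same cells and was not tested.

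Over all genes, further ones were named by size among those at 100 CPM or more in either library whose NK level, where higher, exceeded that of all other barcodes. At day 3, 36 of 1203 such genes were 2-fold or more higher (2.99%) and 12 lower (0.998%). The 5 highest ratios were Gm10709, Gzmc, Rgs16, 2810417H13Rik and Ube2c. Rgs16, a brake on chemokine receptor signals, was at 2.75 CPM in sham and 137, 105, 14.7 and 17.0 CPM at days 3, 7, 14 and 28, in 78 of 272 cells at day 3 and 1 of 87 in sham. 2810417H13Rik (the PCNA-associated factor) and Ube2c are cell cycle genes, and their day 3 UMIs came from 14 and 15 cells. The 5 lowest were Cwc22, Cklf, S1pr4, Bambi and D1Ertd622e. Bambi, a decoy receptor of the TGF-β family, was at 102 CPM in sham and 42.2, 18.6, 69.8 and 38.2 CPM at days 3, 7, 14 and 28. Hspa8, a chaperone, was at 826 CPM in sham and 2267, 1226, 1193 and 378 CPM at days 3, 7, 14 and 28, and was also higher at day 3 in CD8 T cells (1191 and 2664 CPM) and in B cells (595 and 1550 CPM).

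Some of these genes also differed in other lymphocytes of the same library. Of the 36 genes higher at day 3, 25 were also 2-fold or more higher in CD8 T cells or in B cells, 6 of them in both, and of the 12 lower ones 5 and 2. Over all 1203 genes, 5.90% were that much higher in either class and 0.748% in both, and 4.99% and 1.16% lower. At day 7, where 132 of 1331 genes were higher in NK cells (9.92%) and 180 lower (13.5%), 72 of the higher ones were shared with either class and 39 with both, and 57 and 9 of the lower ones, against 10.7% and 3.08% of all genes higher and 6.76% and 0.751% lower. At day 14, where 129 of 1419 were higher (9.09%) and 62 lower (4.37%), the shared ones were 72 and 32, and 21 and 7, against 15.1% and 3.66% of all genes higher and 4.02% and 0.634% lower. At day 28, where 85 of 1357 were higher (6.26%) and 74 lower (5.45%), they were 32 and 15, and 25 and 8, against 6.26% and 1.40% higher and 5.75% and 1.25% lower. Most genes lower in NK cells at day 7, 14 and 28 were thus not 2-fold lower in either other class.

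Some genes differed in the same direction in NK cells and CD8 T cells. The processed pseudogene Gm10709 was at 0 CPM in sham and 525, 446, 73.4 and 84.9 CPM at days 3, 7, 14 and 28 in NK cells and at 0, 695, 454, 143 and 126 CPM in CD8 T cells in the same order. The ribosomal protein gene Rpl29 was at 1463 CPM in sham and 978, 886, 11.0 and 624 CPM at days 3, 7, 14 and 28 in NK cells and at 11.7 CPM in CD8 T cells and 4.60 CPM in B cells of day 14. Cwc22 was at 149 CPM in sham and 24.0, 6.19, 242 and 119 CPM at days 3, 7, 14 and 28 in NK cells and likewise lowest at day 3 and day 7 in CD8 T cells (19.6 and 22.7 CPM) and B cells (16.5 and 18.3 CPM). Gm8730 and Eno1, among the lowest ratios at day 7, 14 or 28, and AY036118, among the highest at day 14 and 28, differed from sham in the same direction in the CD8 T cells of those libraries. The mice were of mixed strain background, so for these genes the time point, the library and the genotype cannot be told apart.

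The Ly6 genes belong with these cautions although they are on the interferon list. Ly6a, which encodes Sca-1, was at 314 CPM in sham and 1649.7, 285, 675 and 63.6 CPM at days 3, 7, 14 and 28 in NK cells and at 131, 1994, 462, 13.8 and 443 CPM in B cells. Ly6c2 was at 105 CPM in sham and 311, 43.3, 0 and 395 CPM at days 3, 7, 14 and 28 in NK cells and at 310, 1148, 469, 1.30 and 327 CPM in CD8 T cells. Both were higher at day 3 than in sham in all of these classes, but Ly6a at day 14 was above sham in NK cells and below it in B cells, and at day 28 the reverse.

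The day 7 library gave 19 members, of which 6 were of mixed lineage. These held at least 1% of their UMIs from the neutrophil, dendritic cell, B cell, epithelial, or red blood cell and platelet list. Members of mixed lineage numbered 1 in sham and 5, 1 and 2 at days 3, 14 and 28. The macrophage and monocyte list was not used for this, and no member was left out on that list alone. Members with 1% or more of it numbered 1 in sham and 1, 0, 23 and 27 at days 3, 7, 14 and 28. Of the 19, 3 had 10 or more UMIs of H2-Aa, a class II gene of antigen-presenting cells, and 3 had 10 or more of S100a8, a neutrophil gene, and all 6 of these also held Gzma. Another 6 members had no Gzma, Prf1 or Eomes UMI, all with Rora and 4 with Nkg7. This left 7 members with Gzma and without another lineage. The list of NK markers had 0 higher and 11 lower of 20 genes at day 7, and that of dendritic cell markers 12 higher of 17 in the files. Without members of mixed lineage these counts were 0 and 7 for the NK markers, of which 5 were among the 11, and 4 higher for the dendritic cell markers. The share over all genes is not given for that exclusion, so the step from 11 to 7 has no background beside it. The NK markers no longer lower were Gzma, Klrk1, Klra4, Klra9, Tbx21 and Txk, and Klrd1 and Tyrobp were added.

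The 5 highest ratios of day 7 were Ccl17, Ccl1, Gzmc, Tnip3 and Ccl22. Ccl17, a chemokine of dendritic cells, reached 1232 CPM from 3 cells, of which 1 gave 79.9%, and these 3 are the members with 10 or more UMIs of H2-Aa. Ccl1, a chemokine of activated lymphocytes, reached 1300.4 CPM from 4 cells without Gzma, of which 1 gave 73.8%. The 5 lowest were Klra3, Cwc22, Gm8730, Hes1 and Wls. Wls, which carries Wnt proteins out of the cell, was at 388 CPM in sham and 316, 55.7, 77.1 and 471 CPM at days 3, 7, 14 and 28, and Hes1, a target of Notch, at 105 CPM in sham and 55.5, 12.4, 88.1 and 106 CPM at days 3, 7, 14 and 28. With the 6 members of mixed lineage left out, an alternative chosen after seeing the data, 181 genes were higher and 175 lower at day 7.

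At day 14 the 4 highest ratios were haemoglobin genes. Hba-a1, Hbb-bt, Hbb-bs and Hba-a2 summed with the rest of their list to 16766 CPM in NK cells, and 1 barcode gave 98.0% of it. Ly6c2, Ly6e, Rpl29, Gm8730 and Eno1 had the lowest ratios. At day 28, Ager, Areg, Thbs1 and Clu had the highest ratios, and 1 barcode gave 94.4% of the Ager, 98.5% of the Areg and 99.2% of the Clu UMIs, while all Thbs1 UMIs were from 1 barcode. Of the markers with a UMI, 8 of 15 epithelial and 7 of 13 neutrophil ones were higher at day 28. For each of these lists 1 cell gave much of the UMIs, 53.6% and 94.5%. As3mt, Cklf and Ly6a were among the lowest ratios with Gm8730 and Eno1. Il7r, a receptor of less mature cells and of other innate lymphoid cells, was at 27.5 CPM in sham and 32.6, 86.7, 88.1 and 182 CPM at days 3, 7, 14 and 28, and at day 28 its UMIs came from 10 of 60 cells. Of these 10, 5 were among the 10 members without a Gzma UMI (597 CPM, against 70.1 CPM in the other 50). The other barcodes of day 28 held Il7r at 214 CPM, above the NK cells, and the part of free RNA in it was not tested.

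Heat shock and immediate early genes, which also answer to the digestion of tissue, counted 38 in the files. Day 3 had 3 higher and 1 lower, day 7 had 16 and 1, day 14 had 9 and 1, and day 28 had 7 and 3. The counts without members of mixed lineage were 8 and 1 at day 7 and 2 and 4 at day 28. Hsp90aa1 was at 275 CPM in sham and 648, 644, 1211 and 645 CPM at days 3, 7, 14 and 28. At day 28, 1 cell gave 51.3% of it. Their part in the other differences was not tested.

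In every library, the summed UMIs of NK cells and of B cells included transcripts of the macrophage and monocyte list. Of that list, Ccr2 is also a listed trafficking gene and Ly6c2 a listed gene of mature NK cells. The sum can therefore not be read as macrophage RNA alone. The list of 32 macrophage and monocyte genes summed to 4748 CPM in NK cells in sham and 2149, 2489, 8660 and 8291 at days 3, 7, 14 and 28, and in B cells to 3802, 2567, 4518, 6175 and 11241 CPM. Its most abundant gene was Lyz2 in sham, day 14 and day 28, Ctsd at day 3 and Fabp5 at day 7. Lyz2 was at 1113 CPM in sham and 261, 384, 2269 and 2665 CPM at days 3, 7, 14 and 28 in NK cells. Thinned to 2000 UMIs, a Lyz2 UMI was present in 88.1, 38.9, 42.1, 100 and 95.7% of NK cells and in 88.8, 43.0, 58.8, 94.9 and 97.9% of B cells. The part of free RNA in these values was not tested. The reporter feature RFP was at 116 CPM in sham and 118, 285, 301 and 174 CPM at days 3, 7, 14 and 28 in NK cells and at 199.5 to 937 CPM in the other barcodes.

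Across all libraries, 43 of 510 members held no Gzma UMI, 4 in sham and 21, 6, 2 and 10 at days 3, 7, 14 and 28. Their median was 5713 UMIs against 4789 in the other 467, pooled over libraries of unlike depth. The deepest members were those of day 3 and day 7, and the part of depth within a library was not tested. Cxcr6, which holds lymphocytes in tissue, was found in 26 of the 43 and in 3 of the 467. Il7r was found in 25 and 32, Rora in 28 and 49, Tmem176b in 27 and 26 and Ikzf2 in 27 and 67. These genes were picked from a list of 19 for innate lymphoid cells of type 1, and no count over that whole list is given for this split. Il7r, Cxcr6 and Rora are also on the list of ILC2 markers. Which cell type these members are was not tested.

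Over all libraries, the same members were compared on Eomes, Klra8 and Prf1, of which only Prf1 is on the list for mature NK cells. No count over that list is given for this split. Eomes was found in 8 of 43 and 330 of 467, Klra8 in 3 and 269 and Prf1 in 7 and 304. The pooled difference was not seen for Eomes at day 28, with a UMI in 5 of 10 members without Gzma and 27 of 50 with it, and at day 14 both members without Gzma held Prf1. Pooled, the members without Gzma more often held lymphotoxin and lymphotactin, with Ltb in 42 of 43 and 171 of 467 and Xcl1 in 37 and 218. At day 28 the level of Xcl1 went the other way. It was at 179 CPM in members without Gzma, from 5 of 10, and at 275 CPM in those with it, from 13 of 50. Gzmc was found in 12 of 43 and 8 of 467, at 1086 against 3.44 CPM, and these 12 were 8 of 21 at day 3, 3 of 6 at day 7 and 1 of 2 at day 14. In sham and at day 28 Gzmc was found in 0 of 4 and 0 of 10 members without Gzma, against 1 of 83 and 0 of 50 with it. Trbc1 was present in 38 of 43 and 365 of 467. The split was drawn from measured values and is given with no test, and the members without Gzma kept the name of the rule.

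The contrast of NK cells with CD8 T cells was replicated, since it could be made within libraries. UMIs were summed per class in the 4 libraries with at least 20 NK cells (sham, day 3, day 14 and day 28, with 125, 545, 390 and 240 CD8 T cells) and tested with edgeR's quasi-likelihood test with the library as a block and Benjamini-Hochberg adjustment over all genes. Genes that define either class were left out of the counts. Of 8689 genes, 811 were higher in NK cells (9.33%) and 891 lower (10.3%) at an adjusted p under 0.05. Without the day 3 library, which holds 272 of the NK cells, 529 were higher and 543 lower, and without the library block 317 and 306. The 4 libraries are 4 time points of 1 library each, so the spread in this test includes that between times. The other innate lymphocytes, ILC2, could not be tested against NK cells because no library held 20 of them (7 to 13).

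The 5 largest fold changes in favour of NK cells were of Serpinb9b, Phactr3, Khdc1a, Klrb1a and Klra8. Serpinb9b, of the family of granzyme B inhibitors, was at 93.6, 148, 173 and 67.9 CPM in the NK cells of sham, day 3, day 14 and day 28 and at 0 in the CD8 T cells of all 4, and the values that follow keep this order. Phactr3 and Khdc1a were also at 0 in CD8 T cells, at 46.8 to 92.9 and 11.0 to 132 CPM in NK cells. Klrb1a, of the same family as NK1.1, was at 190.0, 201, 132 and 229 CPM in NK cells against 0, 0.372, 0 and 0 CPM in CD8 T cells. Klra8 was at 413, 533, 789 and 407 CPM in NK cells against 0, 1.49, 0 and 0 CPM in CD8 T cells. The groups did not overlap in any of these genes, and with CD8 T cells at 0 the fitted fold is no measure of size. The 5 largest differences in the other direction were Gm43698, Ralgps2, Sit1, Gm26771 and Themis, and Themis, needed for T cell selection, was at 0, 0.534, 0 and 0 CPM in NK cells against 67.9, 77.3, 168 and 98.9 CPM in CD8 T cells. The first 4 of these were at 0 in the NK cells of all 4 libraries, so their fitted folds are no measure of size either, and their place ahead of Themis depended on the tool. DESeq2 gave log2 differences of -6.05 to -5.96 for the 4 and -7.54 for Themis.

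Of 20 NK markers outside the rule that were tested, 20 were higher in NK cells and 0 lower, with a median log2 difference of 2.77 against -0.04 over all genes. Gzma was at 11733, 12574, 10136 and 7714 CPM in NK cells against 279, 559.7, 1454 and 217 CPM in CD8 T cells, a log2 difference of 4.16 ± 0.31 (SE, edgeR adjusted p = 4.43e-07). Fcer1g was at 2928, 2953, 2709 and 2049.5 CPM in NK cells against 105, 86.0, 98.3 and 72.1 CPM in CD8 T cells, a log2 difference of 4.61 ± 0.12 (edgeR adjusted p = 4.91e-11). Both genes were higher in NK cells of all 4 libraries without overlap. Prf1 differed by 3.65 ± 0.20, Eomes by 2.30 ± 0.14 and Tbx21 by 2.00 ± 0.18 on the same scale.

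Of 26 receptor genes tested, 18 were higher, 5 lower and 3 neither. The higher ones were 16 Klr genes, among them Klra4 at 8.83 ± 0.22, with Fcgr3 and Slamf7. The lower ones were the checkpoint and adhesion receptors Pdcd1 (-3.48 ± 0.35), Slamf6 (-3.67 ± 0.21), Havcr2, Lag3 and Cd96. Of 17 granule genes, 10 were higher and 2 lower, and the lower ones were Gzmk (-2.89 ± 0.28), a granzyme of memory T cells, and Gzmm (-1.25 ± 0.26). Of 11 cytokines and chemokines, 6 were higher, among them Ccl3 (3.11 ± 0.19) and Xcl1 (3.00 ± 0.26), and Ltb was lower (-1.63 ± 0.13).

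Receptors for cytokines were divided, with 7 of 17 higher and 5 lower. Il12rb2 (3.35 ± 0.23) and Il18rap (2.21 ± 0.17), which bind the interleukins that activate NK cells, were higher, and Il7r (-3.54 ± 0.21) and Il21r (-2.59 ± 0.20) lower. Of 24 transcription factors, 9 were higher and 6 lower. Irf8 was at 1559, 1738, 1997 and 726 CPM in NK cells against 12.3, 46.0, 30.3 and 16.4 CPM in CD8 T cells, a log2 difference of 5.49 ± 0.21, and Tcf7 and Lef1, factors of naive and memory T cells, differed by -2.48 ± 0.14 and -2.55 ± 0.19. Of 25 trafficking genes, 11 were higher, among them S1pr5 (2.43 ± 0.33) and Ccr2 (2.11 ± 0.19), and 8 lower, among them S1pr1 (-3.58 ± 0.18), Ccr7 (-4.57 ± 0.32) and Cd69 (-1.01 ± 0.13).

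Genes of mature NK cells were mostly higher (14 of 19 higher, 3 lower) and those of immature NK cells mostly lower (4 of 15 higher, 9 lower), the latter a list that T cells share through Il7r, Tcf7, Lef1 and Thy1. Of 14 genes of type 1 innate lymphoid cells, 3 were higher and 5 lower, among them Cxcr6 (-2.50 ± 0.19). Of 12 T cell receptor genes, 10 were lower, among them Trac (-5.18 ± 0.24) and Trbc1 (-0.91 ± 0.13), and Trdc was higher (2.07 ± 0.35). Of 15 signal adaptors, 7 were higher and 3 lower, with Syk higher (3.20 ± 0.20) and Lat lower (-2.82 ± 0.15).

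Interferon-stimulated genes were lower in NK cells than in CD8 T cells for 23 of 49 tested and higher for 2, with a median log2 difference of -0.67. Ly6a differed by -1.26 ± 0.14, Bst2 by -1.32 ± 0.16 and Isg15 by -0.86 ± 0.22, while Irf7 differed by 0.31 ± 0.24 (edgeR adjusted p = 0.451). Of 34 replication genes, 1 was higher (H2afz) and 3 lower (Tubb5, Dut and Tyms). The 4 red blood cell genes tested were all called higher in NK cells, and their UMIs in NK cells were nearly all from the single barcode of day 14 named above. Without day 14, the difference of Hba-a1 was -0.10.

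**Figure D5:**
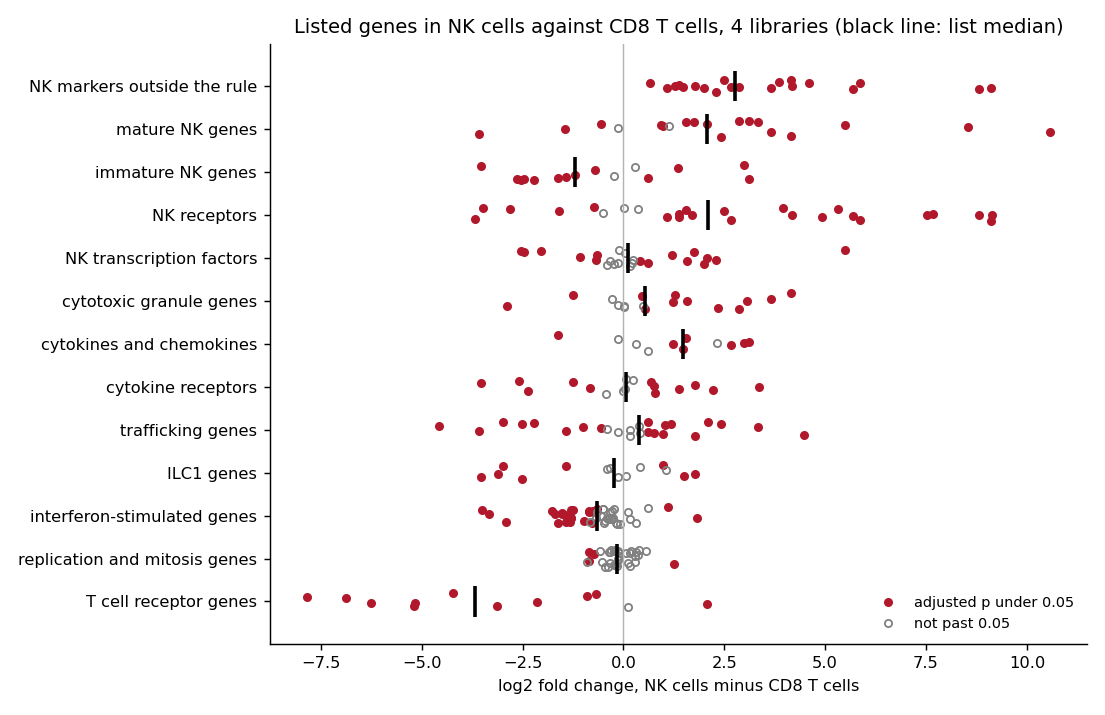
Log2 fold change of NK cells minus CD8 T cells for the tested genes of 13 lists, from edgeR on 4 libraries, with filled points for an adjusted p under 0.05 and a black line at the list median. NK markers lie to the right of 0, T cell receptor genes mostly to the left, and the median of the interferon list is -0.67.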

How the data were processed

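Single-cell libraries were made with the 10x Genomics 3′ v3.1 chemistry, 1 per group. Per the submitters' processing notes and the study's methods, reads were aligned to mm10 with Cell Ranger 6.0.0, while the matrix headers name software version 3.1.0. The authors deposited whole-number UMI counts per gene and barcode, not normalized, and these counts were used as deposited. The members and gene lists were chosen with earlier results of these data known.

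Barcodes were filtered and gated as described, and UMIs were summed per library and class. The depth was 161487 to 1873070 NK UMIs per library, and intervals cover counting error only. Doublets were not removed, as the authors' doublet step was not rerun, and removing those marked by Scrublet (scanpy 1.11.5), which were 9 of the 510 members, was an alternative. Levels were compared as ratios of CPM with exact conditional intervals, and a list member counted as higher or lower at 2-fold or more with an interval that left out 1. Other genes were named as the 5 highest and 5 lowest ratios of each day among those with at least 100 CPM in either library, and the 5 largest fold changes in each direction against CD8 T cells.

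CD8 T cells had at least 2 UMIs of CD3 genes, at least 1 of Cd8a and Cd8b1, none of Cd4, Ncr1 and Klrb1c and the other exclusions of the NK gate. Sums of libraries with at least 20 cells of each class were tested in edgeR 4.0.16 (R 4.3.3, TMM, filterByExpr, library as a block) with DESeq2 1.42.0 as an alternative, and the script was tested on simulated data. Nothing in the sources used here says whether a library pools mice, so p-values measure the spread between libraries. Other alternatives were another UMI floor, gate, minimum level and mitochondrial limit, thinning, and leaving out a library.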

Additional observations from a re-analysis of the deposited data

How the results depend on the processing

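Under the alternatives, the day 3 library kept the highest NK share in all of them. With a floor at the smallest UMI number seen in the day 7 library the share was 0.435% in sham, 0.268% at day 14 and 0.201% at day 28, thinning to 2000 UMIs before the gate gave 1.21% in sham and 0.386% at day 28, and a gate at 1 UMI gave 3.86% at day 3. As a share of NK, T and ILC2 cells it was 17.1, 20.7, 1.87, 5.15 and 4.09% in sham and at day 3, 7, 14 and 28. The counts of genes at 2-fold or more depended most on the minimum level. At 50 CPM they were 83 higher and 68 lower at day 3, 307 and 398 at day 7, 315 and 161 at day 14 and 257 and 184 at day 28. Without the condition on other barcodes they were 76 higher and 24 lower at day 3 and 200 higher at day 7. With the UMI floor they were 41 lower at day 3, 247 higher and 139 lower at day 14 and 240 and 128 at day 28. The cycling share of day 3 was 2.59% in cells thinned to 2000 UMIs, an alternative chosen after seeing the data. The log2 ratio of the interferon list at day 3 lay between 2.21 and 2.33 under its alternatives, against 2.25.

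Against CD8 T cells, DESeq2 called 598 genes higher and 519 lower in NK cells, and edgeR without the library block, which pairs the classes of a library, called 317 and 306. Leaving out 1 library each gave 529 to 789 higher and 543 to 859 lower, lowest for both without the day 3 library, which holds most NK cells. Among named genes and list members, 205 of 1847 comparisons lost their call and 3 reversed. For Hba-a1, leaving out 1 library each gave log2 differences from -0.10 (without day 14) to 5.52. With members of mixed lineage left out, an alternative chosen after seeing the data, Hba-a1 came to -0.030 and Hbb-bt to -0.16. Of 292 comparisons of a day with sham, 47 differed by more than the counting interval and 2 reversed, Clu at day 28 (-0.78 without members of mixed lineage) and Ly6c2 at day 28 (-0.17 with the UMI floor). Of the UMIs of Clu at day 28 and of Hba-a1 and Hbb-bt at day 14, 99.2, 98.6 and 98.7% came from 1 barcode each, and for the other results the cause was not tested. Between time points no paired analysis was possible because each group is 1 library. Levels under about 3 counts in 1 library were not distinguishable from 0 at this depth, most of all among the 161487 NK UMIs of day 7.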
